A study of Mus musculus with 8 samples.

Results

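A set of 10 genes of the transforming growth factor beta (TGF-beta) pathway were followed through the 8 libraries. They were the ligand gene *Tgfb1*, the receptor genes *Tgfbr1*, *Tgfbr2* and *Tgfbr3*, the SMAD genes *Smad2*, *Smad3*, *Smad4* and *Smad7*, and the co-repressor genes *Ski* and *Skil*. The members were taken by symbol from the count tables, 10 of the 48321 symbols listed, and 9 of the 10 passed the filter on low counts and were tested. RNA was sequenced from sorted peripheral CD8+ T cells, the cytotoxic lineage, of C57BL/6 mouse spleen. The series names the mice as *Satb1* F/F; *E8I-cre*, in which floxed *Satb1* alleles are removed by a Cre recombinase under a *Cd8a* enhancer that is active in CD8 lineage cells. The labels give each library only as WT or KO and as Day 0 or Day 5, with 2 numbered libraries in each of the 4 groups, and which alleles or transgenes the WT mice carried is not given in the sources used here. Day 5 cells had been cultured in vitro, and the series title calls them stimulated, but neither the stimulus nor the medium is given. No source states that libraries of a group came from separate animals or cultures, so the p-values measure the spread between these libraries.

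TGF-beta is secreted in a latent complex and acts once it is released. The free ligand brings the type II receptor, encoded by *Tgfbr2*, together with the type I receptor, encoded by *Tgfbr1*, which then phosphorylates SMAD2 and SMAD3. These bind SMAD4 and enter the nucleus, where SKI and SKIL can hold their targets silent, while SMAD7 is a feedback inhibitor that acts on the receptor. In T cells the pathway is known for restraining activation and cytotoxicity and for maintaining integrin alpha E on cells that stay in tissue.

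Gene counts summed to between 4170126 and 11117971 per library. *Satb1*, the targeted gene, had 97.8 and 91.6 CPM (read counts scaled to a common library size) in WT against 144 and 125 CPM in the Day 0 libraries labelled KO, and 96.5 and 116 CPM in WT against 56.5 and 62.3 CPM in KO at Day 5. By edgeR (Benjamini-Hochberg) the log2 fold change of KO over WT was 0.51 at Day 0 (SE 0.15, FDR 0.125, not called) and -0.84 at Day 5 (SE 0.15, FDR 0.0162), and the interaction was -1.34 (SE 0.21, FDR 0.0269). The Day 5 call was lost without replicate 2 of WT (FDR 0.0848), replicate 1 of KO (FDR 0.174) or replicate 2 of KO at that day (FDR 0.156), and the interaction in 6 of the 8 fits without a library (edgeR, Benjamini-Hochberg). These are counts over the whole gene, and the floxed exons were not analysed separately. The Day 0 level runs against the genotype label, and directions drawn at that day, the change with day in KO and the interaction all rest on the label. Transcripts of *Cd3d*, *Cd3e*, *Cd3g*, *Cd8a*, *Cd8b1* and *Cd2*, which mark CD8 T cells, summed to between 8458 and 12660 CPM. Of 35 markers of other cell types, 32 stayed under 10 CPM in every library, *Cd4* among them at no more than 0.964 CPM. The exceptions were *Cd79b* (66.7 to 164 CPM), *Pecam1* (91.3 to 393 CPM) and *Csf1r* (3.53 to 11.7 CPM).

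The members differed widely in level, and their order changed between the days. CPM were computed on library sizes scaled by the trimmed mean of M-values (TMM), and CPM per kilobase of annotated exon was used to compare genes. In WT at Day 0 *Tgfbr2* stood at 12.3 CPM per kilobase, *Tgfbr3* at 11.9 and *Smad4* at 11.7, and the replicates of neighbours among these overlapped. Below them came *Skil* at 7.33, *Smad2* at 5.96, *Ski* at 5.88, *Smad3* at 4.61, *Tgfbr1* at 4.56, *Smad7* at 2.49 and *Tgfb1* at 0.183 CPM per kilobase. The *Tgfbr3* mean rested on 1 library at 20.6 CPM per kilobase. Its other library, at 3.15, lay below the means of *Skil*, *Smad2*, *Ski*, *Smad3* and *Tgfbr1*, so that *Tgfbr3* overlapped with every member but *Smad7* and *Tgfb1*. Of the other neighbours in the lower range, *Smad2* overlapped with *Ski*, and *Smad3* with *Tgfbr1*. In the Day 0 libraries labelled KO the order began with *Tgfbr2* at 15.7 and *Smad4* at 12.7 CPM per kilobase, again with overlapping replicates. It continued with *Skil* at 7.95, *Smad2* at 5.76, *Tgfbr3* at 5.49, *Tgfbr1* at 4.74, *Ski* at 4.16, *Smad3* at 3.29, *Smad7* at 1.85 and *Tgfb1* at 0.33, and each neighbouring pair from *Smad2* to *Ski* overlapped. *Tgfbr3*, at 3.12 and 7.85 CPM per kilobase, there overlapped with *Skil* and *Smad3* as well.

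At Day 5 *Tgfbr2* was no longer among the highest. In WT the order per kilobase was *Tgfbr3* at 9.77, *Smad3* at 8.11, *Smad4* at 5.56, *Smad2* at 4.88, *Tgfbr2* at 4.19, *Tgfbr1* at 2.36, *Skil* at 2.24, *Ski* at 1.53, *Smad7* at 0.669 and *Tgfb1* at 0.312 CPM. Of neighbouring pairs, *Tgfbr3* with *Smad3* and *Tgfbr1* with *Skil* overlapped there, and the *Tgfbr3* libraries, at 15.4 and 4.13 CPM per kilobase, also overlapped with *Smad4*, *Smad2* and *Tgfbr2*. In KO *Smad3* led at 7.35, ahead of *Smad4* at 6.44, *Tgfbr3* at 5.73, *Smad2* at 4.44, *Tgfbr2* at 3.48, *Tgfbr1* at 2.17, *Skil* at 1.93, *Ski* at 1.24, *Smad7* at 0.328 and *Tgfb1* at 0.259 CPM per kilobase. Each neighbouring pair among the first 4 of these overlapped, as did *Tgfbr1* with *Skil* and *Smad7* with *Tgfb1*, and *Tgfbr3* also overlapped with *Tgfbr2*. *Smad3* thus moved from rank 7 to rank 2 in WT and from rank 8 to rank 1 in KO. With the longest annotated transcript as the length, 5 members took another rank in WT at Day 0, where *Tgfbr3* was then at rank 1 and *Tgfbr2* at rank 3. On that length 0 changed rank in KO at Day 0, 2 in WT at Day 5 and 4 in KO at Day 5.

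**Figure D1:**
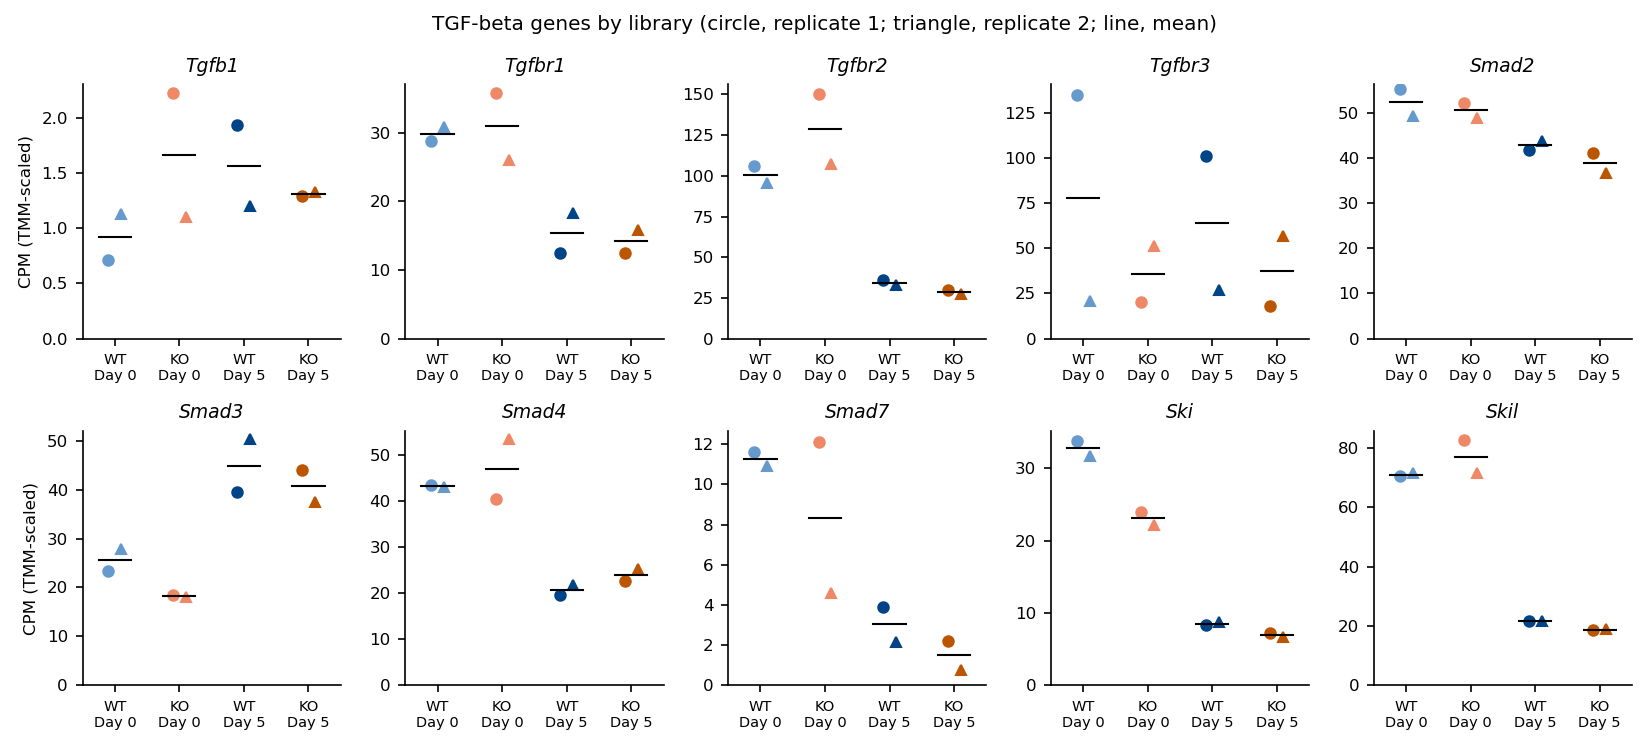
Each panel shows 1 gene, with CPM on TMM-scaled library sizes on the y axis and the 4 groups on the x axis; circles are replicate 1, triangles replicate 2 and lines the mean of the 2 libraries. The Day 5 points of *Tgfbr2*, *Smad4*, *Ski* and *Skil* lie below every Day 0 point, those of *Smad3* lie above, and *Tgfbr3* is high in replicate 1 of WT and replicate 2 of KO at both days.

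Promoter sequences from RefSeq (build GRCm38.p6) were matched for 5 of the 10 members. The upstream stretches of 4 members that changed with day are shown here, since 3 of them fell and *Smad3* rose. Each is written 5′ to 3′ on the strand of its gene and ends before the annotated start, and capitals mark CAGAC or its reverse complement GTCTG, the core of the SMAD binding element. The *Tgfbr2* stretch is chr9:116175364-116175613 (minus strand), the *Tgfbr1* stretch chr4:47352972-47353221 (plus strand), the *Ski* stretch chr4:155222593-155222785 (minus strand) and the *Smad3* stretch chr9:63757995-63758244 (minus strand).
Tgfbr2: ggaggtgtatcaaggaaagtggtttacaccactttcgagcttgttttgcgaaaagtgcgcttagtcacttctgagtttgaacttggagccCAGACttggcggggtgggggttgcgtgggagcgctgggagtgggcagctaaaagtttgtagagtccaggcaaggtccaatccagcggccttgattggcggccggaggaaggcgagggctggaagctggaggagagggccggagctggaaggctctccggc
Tgfbr1: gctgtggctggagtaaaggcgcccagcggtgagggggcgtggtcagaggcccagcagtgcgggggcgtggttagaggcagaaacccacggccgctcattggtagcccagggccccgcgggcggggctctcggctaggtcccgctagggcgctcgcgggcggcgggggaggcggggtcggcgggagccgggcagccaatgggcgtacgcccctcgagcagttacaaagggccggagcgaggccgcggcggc
Ski: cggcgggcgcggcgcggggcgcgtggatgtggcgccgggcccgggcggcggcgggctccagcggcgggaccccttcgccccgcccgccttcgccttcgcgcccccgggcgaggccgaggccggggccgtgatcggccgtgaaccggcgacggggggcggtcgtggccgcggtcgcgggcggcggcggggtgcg
Smad3: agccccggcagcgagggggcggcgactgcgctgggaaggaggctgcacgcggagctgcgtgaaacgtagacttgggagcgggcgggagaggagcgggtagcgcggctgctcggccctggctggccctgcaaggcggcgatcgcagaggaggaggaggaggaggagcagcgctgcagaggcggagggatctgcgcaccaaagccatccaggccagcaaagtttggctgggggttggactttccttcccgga
The *Tgfbr2* stretch held 1 copy of the motif and the other 3 held none, where 42.2% of 32851 promoter windows of 250 bases hold at least 1 on either strand. The *Ski* stretch is shorter, and in the first 193 bases of each window the share is 34.9% for this motif and 23.5% for the GC box. A start of *Tgfbr1* annotated further downstream, with an upstream stretch of chr4:47385966-47386215, had 1 copy. The GC box GGGCGG was absent from the *Tgfbr2* stretch, and it occurred 2 times upstream of the first *Tgfbr1* start, 4 times upstream of *Ski* and 2 times upstream of *Smad3*, against 32.7% of windows with at least 1. Neither the AP-1 letters TGANTCA nor the TATA letters TATAAA were found in any of the 4, while 6.75% and 12.4% of windows hold them. In the first 193 bases of each window, the length of the *Ski* stretch, these shares are 5.31% and 8.86%. G and C made up 58.4% of the *Tgfbr2* stretch, 74.8% of the *Tgfbr1* stretch, 86.5% of the *Ski* stretch and 69.2% of the *Smad3* stretch, and the median window held 52.4%.

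The comparison of the days asked how the pathway differed between freshly isolated and cultured cells. The receptors *Tgfbr1* and *Tgfbr2*, the common SMAD gene *Smad4*, the inhibitor gene *Smad7* and both co-repressor genes were lower at Day 5 in each genotype, and *Smad3* was higher. In WT 7 of the 9 tested members were called (FDR under 0.05 by the quasi-likelihood test of edgeR, adjusted after Benjamini-Hochberg over all genes tested), 1 higher and 6 lower, where 48.3% of the 12597 tested genes were called, 24.7% higher and 23.6% lower. In KO 7 of 9 were called, 1 higher and 6 lower, where 50.2% of genes were called, 26.2% higher and 24% lower. The 7 members were the same genes in both genotypes. For 7 members, *Smad2* in place of *Smad3* among them, all 4 Day 5 libraries lay below all 4 Day 0 libraries, as they did for 25.8% of the tested genes. The median log2 fold change of the 9 members was -1.07 in WT and -1.14 in KO, and over all tested genes it was -0.04 and -0.05. With scaling by library totals in place of TMM the medians over all genes moved to -0.17 and -0.23, and higher genes made up 42.8% and 41.2% of calls in place of 51.2% and 52.1%; the 7 members kept their directions under that scaling. In bulk RNA, fewer cells that express a gene and less of its RNA per cell cannot be told apart.

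Marker sums of other cell types also moved with day. The 6 B-cell markers summed to between 124 and 168 CPM at Day 0 and between 67.6 and 84.6 CPM at Day 5, nearly all of it *Cd79b*, and the 6 markers of stroma or endothelium to between 288 and 394 CPM and between 91.6 and 103 CPM, nearly all of it *Pecam1*. The 6 myeloid markers summed to between 10.4 and 19 CPM at Day 0 and between 4.06 and 5.87 CPM at Day 5. Markers of CD4 T cells, platelets, erythroid cells and NK cells each summed to 6.26 CPM or less in every library. The part of other cells in the differences between days was not tested.

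*Tgfbr2* (chromosome 9, 116084293 to 116175360) encodes the receptor that binds the ligand and starts the signal. Its level was 106 and 95.6 CPM in WT and 150 and 107 CPM in KO at Day 0, and 35.8 and 32.8 CPM in WT and 30 and 27.1 CPM in KO at Day 5. All 4 Day 5 libraries lay below all 4 Day 0 libraries. In WT it fell by 1.56 on the log2 scale (SE 0.18, FDR 1.95e-05), from 101 ± 7.5 to 34.3 ± 2.14 CPM (SD, n = 2 libraries, as for all means that follow). In KO it fell by 2.18 on the log2 scale (SE 0.18, FDR 9.03e-07), from 129 ± 30.3 to 28.5 ± 2.06 CPM.

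*Tgfbr1* (chromosome 4, 47353222 to 47414931), the receptor kinase that phosphorylates SMAD2 and SMAD3, was at 28.8 and 30.8 CPM in WT and 35.9 and 26.1 CPM in KO at Day 0. At Day 5 it was at 12.5 and 18.3 CPM in WT and at 12.5 and 15.9 CPM in KO. Every Day 5 library was again below every Day 0 library. The log2 fold change was -0.96 (SE 0.25, FDR 0.00674) in WT and -1.14 (SE 0.24, FDR 0.00187) in KO. Without replicate 1 of WT at Day 5 the WT value was -0.68 and the call was lost (FDR 0.088, edgeR with Benjamini-Hochberg adjustment).

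*Smad3* (chromosome 9, 63646767 to 63757994) encodes a receptor-activated SMAD that binds DNA directly. It was at 23.3 and 27.8 CPM in WT and 18.5 and 18 CPM in KO at Day 0, and at 39.5 and 50.4 CPM in WT and 44 and 37.5 CPM in KO at Day 5. It was the only member with all 4 Day 5 libraries above all 4 Day 0 libraries, as was the case for 27.2% of the tested genes. The mean rose from 25.5 ± 3.22 to 44.9 ± 7.68 CPM in WT (log2 fold change 0.81, SE 0.20, FDR 0.00421) and from 18.3 ± 0.386 to 40.7 ± 4.58 CPM in KO (1.15, SE 0.19, FDR 0.000329). The call held in each of the alternatives run, with log2 fold changes in WT between 0.67 and 1.01.

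*Smad2* (chromosome 18, 76241580 to 76310963), the other SMAD that this receptor activates, changed less. Its level was 55.4 and 49.3 CPM in WT and 52.2 and 49 CPM in KO at Day 0, and 41.8 and 43.9 CPM in WT and 41.2 and 36.7 CPM in KO at Day 5. The libraries of the days did not overlap, but the log2 fold changes of -0.29 (SE 0.16, 95% interval -0.64 to 0.06, FDR 0.155) in WT and -0.38 (SE 0.16, 95% interval -0.73 to -0.03, FDR 0.0653) in KO were not called. With library totals as the scaling the FDR was 0.0481 in WT and 0.0119 in KO, and with a correction for GC content and exon length it was 0.0402 in WT (edgeR, Benjamini-Hochberg).

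*Smad4* (chromosome 18, 73639009 to 73703780), the partner shared by the activated SMADs of the TGF-beta and bone morphogenetic protein branches, was at 43.5 and 43.2 CPM in WT and 40.6 and 53.6 CPM in KO at Day 0. At Day 5 it was at 19.6 and 21.7 CPM in WT and at 22.6 and 25.2 CPM in KO, below all Day 0 libraries. It fell by 1.07 on the log2 scale in WT (SE 0.20, FDR 0.000651) and by 0.97 in KO (SE 0.19, FDR 0.000968).

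*Smad7* (chromosome 18, 75367529 to 75395935), which blocks the activated type I receptor and recruits ubiquitin ligases to it, had few counts. They were 65 and 48 in WT and 141 and 25 in KO at Day 0, and 22 and 9 in WT and 12 and 4 in KO at Day 5. As CPM these were 11.6 and 10.9 in WT and 12.1 and 4.59 in KO at Day 0, against 3.88 and 2.17 in WT and 2.21 and 0.757 in KO at Day 5. The Day 5 values were the lower ones throughout, and the Day 0 libraries labelled KO differed 2.64-fold from each other. The log2 fold change was -1.85 (SE 0.51, FDR 0.00969) in WT and -2.52 (SE 0.56, FDR 0.00235) in KO. The KO value was -1.60 without replicate 1 of KO at Day 0 (FDR 0.0456) and -3.47 without replicate 1 of KO at Day 5 (FDR 0.00413, edgeR, Benjamini-Hochberg). The WT call was lost without replicate 1 of WT at Day 0 (FDR 0.0509) and without replicate 2 of WT at Day 5 (FDR 0.0795, both edgeR with Benjamini-Hochberg adjustment).

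The co-repressor genes had closely matched replicates. *Ski* (chromosome 4, 155154075 to 155222592) was at 33.8 and 31.7 CPM in WT and 24 and 22.2 CPM in KO at Day 0, and at 8.29 and 8.68 CPM in WT and 7.17 and 6.63 CPM in KO at Day 5. *Skil* (chromosome 3, 31095058 to 31122577) was at 70.5 and 71.7 CPM in WT and 82.6 and 71.6 CPM in KO at Day 0, and at 21.7 CPM in both WT libraries and 18.6 and 18.9 CPM in KO at Day 5. For both genes the 4 Day 5 libraries were close to each other and far below Day 0. *Ski* fell 3.86-fold in WT (log2 fold change -1.95, SE 0.21, FDR 1.1e-05) and 3.35-fold in KO (-1.74, SE 0.22, FDR 2.75e-05). *Skil* fell 3.27-fold in WT (-1.71, SE 0.17, FDR 3.5e-06) and 4.12-fold in KO (-2.04, SE 0.17, FDR 6.06e-07).

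**Figure D2:**
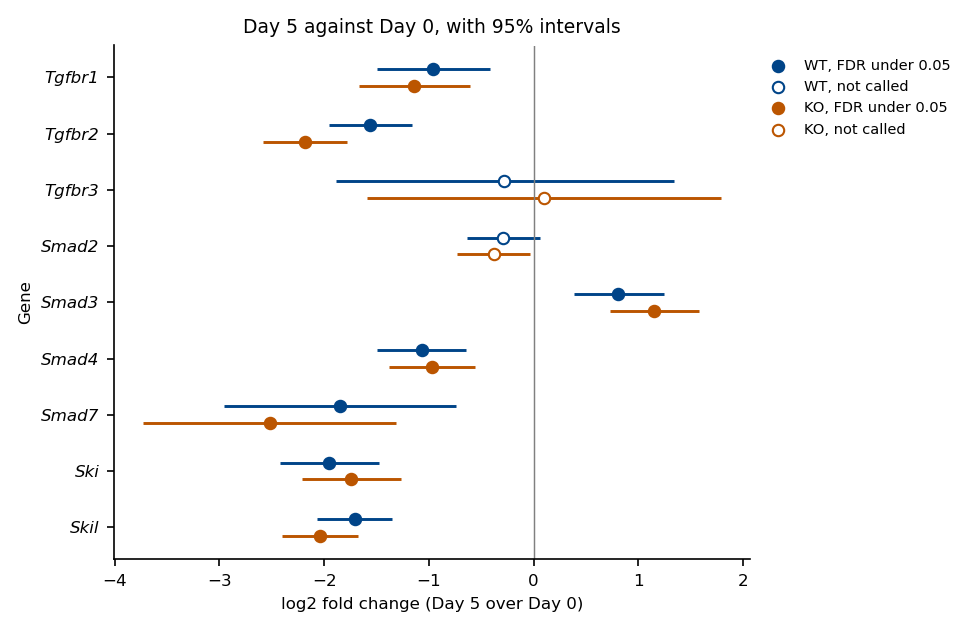
The x axis is the log2 fold change of Day 5 over Day 0 and the y axis the 9 tested genes; points are the fitted values in WT and KO, filled where the FDR was under 0.05, and lines their 95% intervals. *Tgfbr1*, *Tgfbr2*, *Smad4*, *Smad7*, *Ski* and *Skil* lie left of 0 in both genotypes, *Smad3* lies right of 0, and the intervals of *Tgfbr3* span 0.

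*Tgfb1* (chromosome 7, 25687002 to 25705077), the ligand gene, had 4 and 5 counts in WT and 26 and 6 in KO at Day 0, and 11 and 5 in WT and 7 and 7 in KO at Day 5. These correspond to between 0.715 and 2.23 CPM, and no group stood apart from the others. The gene was removed by the filter and no test was run for it. The annotation used for counting is not given, so the counts hold for the part of the gene that was counted.

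*Tgfbr3* (chromosome 5, 107106570 to 107289629), which encodes the co-receptor betaglycan, varied more between replicates than between groups. It was at 135 and 20.6 CPM in WT and 20.4 and 51.4 CPM in KO at Day 0, and at 101 and 27 CPM in WT and 18 and 57 CPM in KO at Day 5. The first WT library was the higher one at both days, and so was the second KO library. Of the 12597 tested genes, 35 differed more between the WT replicates at Day 0, where the ratio was 6.55, and 103 at Day 5, where it was 3.74. In KO, 500 genes differed more at Day 0, where the ratio was 2.52, and 185 at Day 5, where it was 3.16. The log2 fold change between the days was -0.28 (SE 0.74, 95% interval -1.89 to 1.34) in WT and 0.10 (SE 0.78, 95% interval -1.59 to 1.79) in KO, from a fit that takes no account of the library number. Between same-numbered libraries *Tgfbr3* differed by -0.42 and 0.39 in WT and by -0.18 and 0.15 in KO on the log2 scale, Day 5 minus Day 0, which is less than the differences between the libraries of each group.

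The genes that followed *Tgfbr3* over the libraries were chosen after their values were seen. Of the 10 with the highest correlation of log2 CPM over the 8 libraries, 6 were annotated processed copies of *Rplp0*, a ribosomal protein gene, led by *Gm9625* (r = 0.969) and including *Rplp0-ps1* (r = 0.954). *Gm9625* was at 383 and 42.5 CPM in WT and 28.1 and 145 CPM in KO at Day 0, and at 368 and 35.9 CPM in WT and 40.1 and 211 CPM in KO at Day 5. *Rplp0* itself went the other way, with 1309 and 2676 CPM in WT and 2013 and 1499 CPM in KO at Day 0, and 1259 and 2324 CPM in WT and 2729 and 1855 CPM in KO at Day 5. The copies align to the *Rplp0* transcript over 459 to 955 bases at 85.6% to 98.7% identity, while 0 of the 4 annotated *Tgfbr3* transcripts aligned to it. Reads that fit more than 1 place were set aside in counting, so counts of near-identical copies are uncertain. The part of this sequence or of the library number in the *Tgfbr3* values was not tested.

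**Figure D3:**
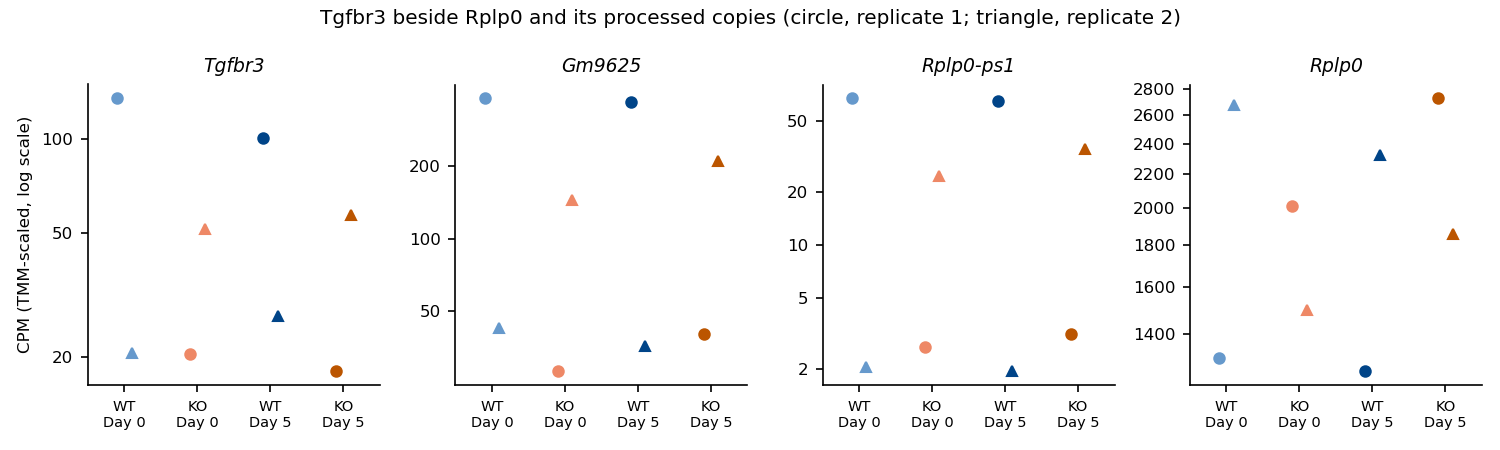
CPM on a log axis for *Tgfbr3*, the processed copies *Gm9625* and *Rplp0-ps1*, and *Rplp0*, with the 4 groups on the x axis; circles are replicate 1 and triangles replicate 2. In the first 3 panels the high points are replicate 1 of WT and replicate 2 of KO at both days, and in the *Rplp0* panel these are the low points of each group.

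For 3 members the genes with the most similar course over the 8 libraries were found by the Pearson correlation of log2 CPM. The libraries form 2 sets by day, so these values mostly describe a shared difference between the days. Nearest to *Tgfbr2* were *Trak2* (r = 0.9969), *Nsun4* (0.9963) and *Gimap8* (0.9928). For *Smad3* they were *Rabl2* (r = 0.9898), *Gm3550* (0.9889) and *Ckb* (0.9862), and for *Smad7* *Mccc1os* (r = 0.9814), *Abhd11os* (0.9787) and *Usp18* (0.9741).

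The comparison of KO with WT asked whether the genotype altered these genes. At Day 0, 0 of the 9 tested members were called (edgeR quasi-likelihood test, Benjamini-Hochberg), where 1.8% of genes were called, 0.913% higher and 0.889% lower. Both DESeq2 and edgeR gave 0, and 2 members, *Ski* and *Smad3*, had an unadjusted p under 0.05. *Ski* was lower in both Day 0 libraries labelled KO than in both WT libraries, with means of 23.1 ± 1.28 and 32.7 ± 1.52 CPM (log2 fold change -0.50, SE 0.19, 95% interval -0.91 to -0.09, FDR 0.257). *Smad3* likewise did not overlap, with 18.3 ± 0.386 CPM in the libraries labelled KO and 25.5 ± 3.22 CPM in WT (-0.48, SE 0.20, 95% interval -0.91 to -0.04, FDR 0.305). *Tgfbr2* was the third gene without overlap, at a log2 fold change of 0.35 (SE 0.17, 95% interval -0.02 to 0.72), and 43.4% of all tested genes had no overlap between the genotypes at Day 0. For *Tgfbr1*, *Smad2*, *Smad4* and *Skil* the fitted values lay between -0.05 and 0.12 on the log2 scale, and the widest of their intervals was that of *Tgfbr1*, from -0.43 to 0.57. The intervals of *Smad7* (-1.33 to 0.58) and *Tgfbr3* (-2.82 to 0.48) were wider and include 2-fold decreases.

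At Day 5, 0 of the 9 members were called by edgeR (Benjamini-Hochberg) and 0 by DESeq2, 0 had an unadjusted p under 0.05, and 1.63% of all tested genes were called, 1.31% higher and 0.318% lower. Libraries of the genotypes did not overlap for 5 members, which were *Tgfbr2*, *Smad2*, *Smad4*, *Ski* and *Skil*, and for 45.6% of all tested genes. Their log2 fold changes were small, from -0.29 (SE 0.24) for *Ski* to 0.22 (SE 0.20) for *Smad4*. *Smad7* had the largest fitted difference, -1.05 (SE 0.64, 95% interval -2.44 to 0.35), on counts of 22 and 9 in WT and 12 and 4 in KO. Over the alternatives run, the *Smad7* value lay between -2.00 and -0.49. *Tgfbr3* followed at -0.79 (SE 0.77, 95% interval -2.46 to 0.88). The median over the 9 members was -0.21, against 0.00 over all tested genes, and at Day 0 it was -0.05 against -0.00. Without the filter on low counts *Tgfbr3* was called at Day 0 (log2 fold change -1.14, FDR 7.73e-06) and at Day 5 (-0.78, FDR 0.0159, edgeR with Benjamini-Hochberg adjustment), but without replicate 1 of WT the fitted value was 0.76 at Day 0 and 0.48 at Day 5.

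**Figure D4:**
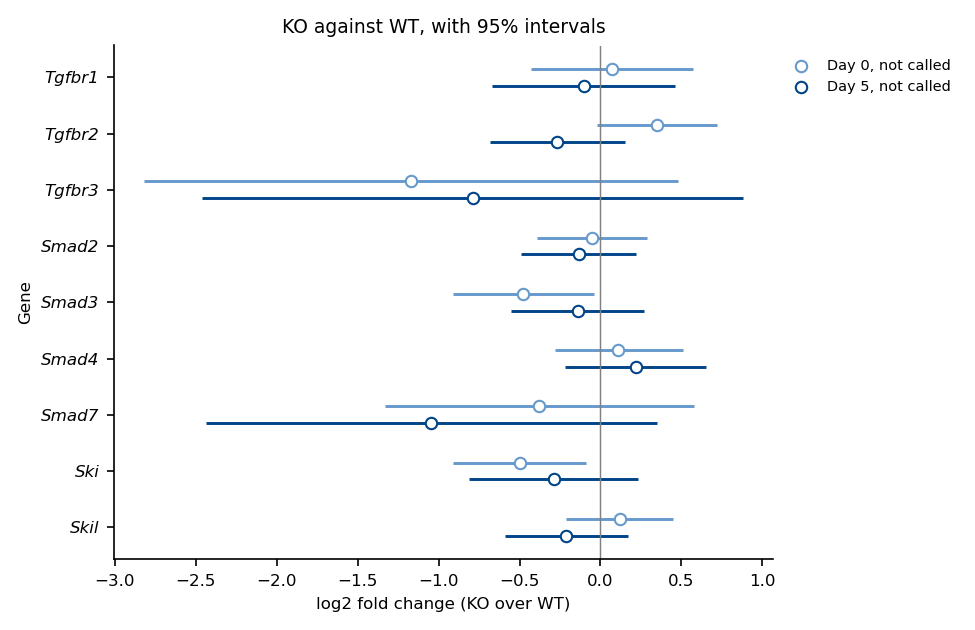
The x axis is the log2 fold change of KO over WT and the y axis the 9 tested genes; open points are the fitted values at Day 0 and Day 5, none with an FDR under 0.05, and lines their 95% intervals. Intervals at Day 0 lie left of 0 for *Smad3* and *Ski*, and those of *Tgfbr3* and of *Smad7* at Day 5 are the widest.

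The interaction, the KO against WT difference at Day 5 minus that at Day 0, asked whether the change with day differed by genotype. It called 0 of the 9 members by edgeR (Benjamini-Hochberg) and 0 by DESeq2, with 0.159% of genes called, 0.0794% in each direction. *Tgfbr2* was the 1 member with an unadjusted p under 0.05, at -0.62 (SE 0.26, 95% interval -1.18 to -0.06, FDR 0.348). That value joins a KO against WT difference of -0.27 at Day 5 with one of 0.35 at Day 0, the day at which the *Satb1* level runs against the label. Its same-numbered libraries differed between the days by 2.97-fold and 2.92-fold in WT and by 5-fold and 3.96-fold in KO. The numbers are not known to pair libraries, and the KO libraries at Day 0 were at 150 and 107 CPM. For *Smad3* the interaction was 0.34 (SE 0.27, 95% interval -0.26 to 0.94), for *Skil* -0.33 (SE 0.23, 95% interval -0.83 to 0.17) and for *Ski* 0.20 (SE 0.31, 95% interval -0.46 to 0.87).

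A wider set of 90 listed pathway genes, of which 62 were tested, was read from the same fit. With day, 36 were called in WT (58.1%, 17 rose and 19 fell), against 48.3% of all tested genes, and 32 in KO (51.6%, 15 rose and 17 fell), against 50.2%. Between KO and WT, 5 were called at Day 0 and 5 at Day 5 (8.06% each), against 1.8% and 1.63% of all tested genes. The lists were chosen with earlier results of these data known, so these shares cannot show an excess in the pathway. At Day 5 the calls were all among genes that TGF-beta is known to raise or lower in T cells, and 0 were in the other lists. In the interaction 0 were called by edgeR (Benjamini-Hochberg), 11 had an unadjusted p under 0.05, and DESeq2 called 2. The counts of each list stand beside 24.7% of all tested genes higher and 23.6% lower with day in WT, and 26.2% higher and 24% lower in KO, with all-gene medians of -0.04 and -0.05, and no list was tested against other genes. Some genes passed the filter on low counts by their Day 5 libraries alone, among them *Tgfb3*, *Lrrc32*, *Cdkn1a*, *Ifng* and *Tbx21*. These could hardly be called as falling. *Pmepa1* passed it by its Day 0 libraries and could hardly be called as rising.

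Among the genes for other ligands and for ligand release, 3 of 6 tested rose and 1 fell by Day 5 in each genotype, with list medians of 0.93 in WT and 0.52 in KO on the log2 scale. Of the genes that rose in both, *Lrrc32* and *Tgfb3* passed the filter on low counts by their Day 5 libraries alone. *Lrrc32*, which encodes the protein GARP that holds latent TGF-beta on the cell surface, had 0 counts in both WT libraries and 1 and 0 counts in KO at Day 0. At Day 5 it was at 49.2 and 36.4 CPM in WT and 50.2 and 54.3 CPM in KO. The WT rise was at least 70.5-fold, against a floor of 3 counts per library. *Itgav*, an integrin subunit that takes part in releasing the ligand, rose from 9.44 to 32.1 CPM in WT (log2 fold change 1.77, SE 0.22) and was not called in KO, at 22.9 and 27.9 CPM (0.30, SE 0.20). At Day 0 it was at 20.4 and 25.3 CPM in the libraries labelled KO against 9.84 and 9.04 CPM in WT (1.26, SE 0.22, FDR 0.0135), a call lost without replicate 1 (FDR 0.131) or replicate 2 (FDR 0.146) of WT at Day 0 (edgeR, Benjamini-Hochberg). *Furin*, a protease that cleaves the ligand precursor, fell by 1.27 in WT (SE 0.38) and by 1.12 in KO (SE 0.37) on the log2 scale, and the WT value was -1.87 without replicate 1 of WT at Day 5. Both *Furin* calls were lost when GC content and exon length were corrected for (FDR 0.138 and 0.0814, edgeR, Benjamini-Hochberg). The WT call was also lost without replicate 2 of WT at either day (highest FDR 0.15), and the KO call without replicate 2 at Day 0 or either replicate at Day 5 (highest FDR 0.126), at equal depth (FDR 0.146) and with DESeq2 (FDR 0.0733, edgeR otherwise, all Benjamini-Hochberg). *Nrros*, another carrier of latent ligand, was not called in WT, at 189 and 176 CPM, and rose from 142 to 227 CPM in KO (0.68, SE 0.21), a call lost without replicate 2 of KO at Day 0 (FDR 0.15) or Day 5 (FDR 0.151, edgeR, Benjamini-Hochberg).

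Of 7 tested receptors and receptor partners of the wider family, 2 rose and 2 fell with day in WT, and in KO 1 rose and 1 fell, with medians of -0.58 and -0.61. *Acvrl1*, a type I receptor better known from endothelium, had 1 and 2 counts in WT and 2 and 45 in KO at Day 0. At Day 5 it had 154 and 71 counts in WT and 94 and 589 in KO, and it was called in both genotypes (FDR 0.00641 and 0.00275, edgeR, Benjamini-Hochberg). The call was lost without either Day 0 library in WT (FDR 0.0731 and 0.0513) and without replicate 2 of KO at Day 5 (FDR 0.073, edgeR, Benjamini-Hochberg). The log2 fold change of *Acvrl1* was 6.12 in WT and 6.82 without replicate 2 at Day 0, and in KO it was 4.27 and went to between 2.29 without replicate 2 at Day 5 and 8.38 without replicate 2 at Day 0. *Tgfbrap1*, whose product associates with the receptors, fell from 11.5 to 3.59 CPM in WT and from 17.1 to 6.15 CPM in KO.

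Of 12 tested SMAD and partner genes outside the members, 1 rose and 5 fell in WT, and in KO 1 rose and 4 fell, with medians of -0.46 and -0.30. *Crebbp*, a histone acetyltransferase that activated SMADs recruit, fell from 367 to 156 CPM in WT (log2 fold change -1.23, SE 0.12) and from 446 to 156 CPM in KO (-1.51, SE 0.12). *Runx2*, a transcription factor that partners SMADs, rose from 1.46 to 12 CPM in WT and from 2 to 10.3 CPM in KO. The WT libraries at Day 0 held 5 and 9 counts of *Runx2*, and the WT log2 fold change of 3.07 was 3.73 without replicate 2 of them. *Hipk2*, a nuclear kinase, fell from 16 to 5.79 CPM in WT and from 8.93 to 4.67 CPM in KO. *Smad5*, which serves the bone morphogenetic protein branch, was at 45.2 and 30.5 CPM in the Day 0 libraries labelled KO and at 19.1 and 16.7 CPM in WT (1.09, SE 0.23, FDR 0.0324, edgeR, Benjamini-Hochberg). Its call was lost without either WT library of Day 0 (FDR 0.197 and 0.263), without replicate 1 of KO at Day 0 (FDR 0.186) and without either KO library of Day 5 (FDR 0.0615 and 0.0587, edgeR, Benjamini-Hochberg), and *Smad5* then fell to 15.7 CPM in KO at Day 5, while in WT it was not called, at 17.9 and 13 CPM.

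Regulators that act on receptors and SMADs numbered 24 tested, of which 3 rose and 7 fell in WT, and in KO 3 rose and 8 fell, and medians of -0.32 and -0.29. The SMURF ubiquitin ligases, partners of SMAD7, were among the lower ones, *Smurf1* from 20.4 to 5.75 CPM in WT (log2 fold change -1.83, SE 0.30) and from 17.8 to 5.86 CPM in KO (-1.58, SE 0.29), and *Smurf2* from 52.3 to 20.2 CPM in WT (-1.37, SE 0.17) and from 73.6 to 22.8 CPM in KO (-1.70, SE 0.17). *Fkbp1a*, whose product binds the resting type I receptor, rose from 10.8 to 30.2 CPM in WT (1.49, SE 0.27) and from 12 to 27.2 CPM in KO (1.14, SE 0.26). *Ldlrad4*, which encodes a membrane inhibitor of SMAD activation, was at 42.2 and 35.1 CPM in the Day 0 libraries labelled KO and at 13.6 and 10.9 CPM in WT (1.66, SE 0.25, FDR 0.00547), a call lost without either WT library of Day 0 (FDR 0.0625 and 0.103, edgeR, Benjamini-Hochberg). It then fell by 3.30 in WT (SE 0.38) and by 3.99 in KO (SE 0.31) on the log2 scale. Of its annotated exon length, 52.1% overlaps exons of other genes on the opposite strand, and since the strand setting of the counting is not given these counts are uncertain.

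**Figure D5:**
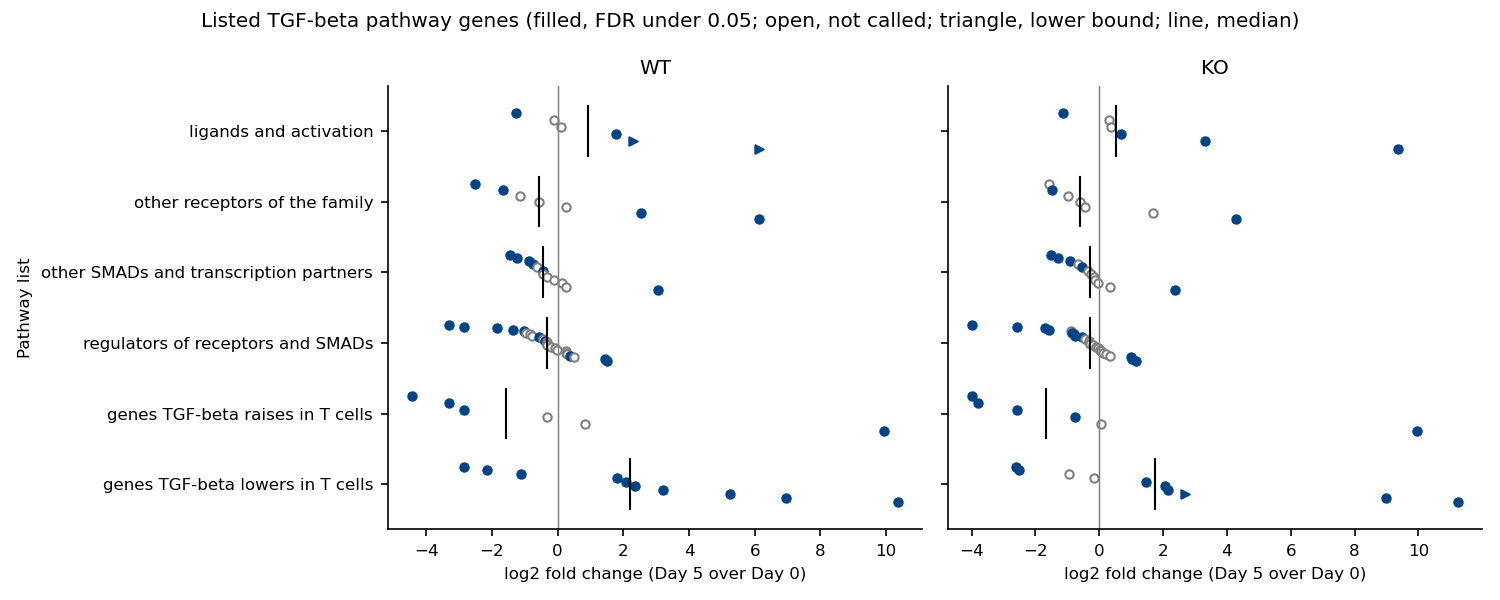
For each of the 6 lists of pathway genes on the y axis, the x axis gives the log2 fold change of Day 5 over Day 0 of each tested gene in WT (left) and KO (right), filled where the FDR was under 0.05; triangles are lower bounds of genes with 0 counts in both Day 0 libraries and vertical lines are list medians. The list of genes that TGF-beta raises has medians of -1.58 and -1.68, and the list of genes that it lowers has medians of 2.21 and 1.76.

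Of 6 tested genes that TGF-beta is known to raise in T cells, 1 rose and 3 fell with day in WT, and in KO 1 rose and 4 fell, with medians of -1.58 and -1.68 on the log2 scale. *Pmepa1*, *Ldlrad4* and *Tgif1* of this list were also counted among the regulators of receptors and SMADs. *Itgae*, which encodes integrin alpha E (CD103), was at 122 and 126 CPM in WT and 139 and 133 CPM in KO at Day 0, and at 8.29 and 2.65 CPM in WT and 6.81 and 12.9 CPM in KO at Day 5. It fell by 4.43 in WT (SE 0.34) and by 3.79 in KO (SE 0.31) on the log2 scale. Leaving out 1 library at a time gave -5.52 to -3.87 in WT, the first of these without replicate 1 of WT at Day 5, and -4.31 to -3.39 in KO. *Cdkn1a*, an inhibitor of the cell cycle, had counts of 1 and 1 in WT and 5 and 1 in KO at Day 0, and 227 and 202 CPM in WT and 349 and 380 CPM in KO at Day 5. Its KO log2 fold change of 9.94 was 10.79 without replicate 1 at Day 0. The genotype difference of *Cdkn1a* at Day 5 was called (log2 fold change 0.76, SE 0.13, FDR 0.0131), but not without replicate 2 of WT (FDR 0.0696), replicate 1 of KO (FDR 0.0878) or replicate 2 of KO at that day (FDR 0.225, edgeR, Benjamini-Hochberg).

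*Foxp3*, the lineage factor of regulatory T cells, was at 43.7 and 65.9 CPM in the Day 0 libraries labelled KO and at 9.12 and 10.4 CPM in WT (log2 fold change 2.48, SE 0.34, FDR 0.00271). At Day 5 it was at 51.7 and 61.9 CPM in KO and at 23.8 and 9.64 CPM in WT (1.73, SE 0.32, FDR 0.0193). The Day 0 call was lost without either WT library of that day (highest FDR 0.0923), and the Day 5 call without either of those, without replicate 2 of WT or without either KO library of Day 5 (highest FDR 0.174, edgeR, Benjamini-Hochberg). The Day 5 value ran from 1.25 to 2.56 when a library was left out, and was 2.56 without replicate 1 of WT at Day 5. The CD4 T-cell markers *Cd4*, *Zbtb7b* and *Cd40lg* together summed to between 1.36 and 3.58 CPM in WT and between 6.06 and 6.26 CPM in KO at Day 0, and to between 2.65 and 3.22 CPM at Day 5. In the highest library of each, *Cd4* was at 0.964, *Zbtb7b* at 2.47 and *Cd40lg* at 5.66 CPM. Exons of other genes overlap 18.7% of the *Foxp3* exon length on the opposite strand and 18.6% on the same strand, which leaves its count uncertain.

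Of 10 tested genes that TGF-beta is known to lower in T cells, 7 rose and 3 fell with day in WT, beside 24.7% and 23.6% of all tested genes, and in KO 6 rose and 2 fell, beside 26.2% and 24%, with medians of 2.21 and 1.76. *Gzmb*, which encodes the granule protease granzyme B, went from 3.53 to 4618 CPM in WT and from 1.73 to 4264 CPM in KO. *Gzma* went from 1.86 to 236 CPM in WT and from 1.79 to 840 CPM in KO, and was higher in KO than in WT at Day 5 (log2 fold change 1.83, SE 0.29, FDR 0.00909), a call lost without replicate 1 of KO (FDR 0.0739, edgeR, Benjamini-Hochberg). Omitting 1 library moved that value to between 1.37 and 2.54, the latter without replicate 1 of WT at Day 5. The *Gzma* rise with day in WT, from 6.95 on the log2 scale, was 6.27 without that library, and its WT libraries at Day 5 were at 326 and 146 CPM. *Ifng*, the gene of interferon gamma, had counts of 2 and 1 in WT and 0 and 0 in KO at Day 0, and was at 16 and 7.95 CPM in WT and 3.13 and 2.08 CPM in KO at Day 5. Its KO rise with day was at least 6.45-fold, and its genotype difference at Day 5 (-2.21, SE 0.47, FDR 0.0429) was lost in 6 of the 8 fits that left out a library, the highest FDR being 0.385 (edgeR, Benjamini-Hochberg), and its size was -1.59 without replicate 1 of WT at Day 5. On the same strand, 25.9% of the exon length of *Ifng* overlaps another annotated gene. *Prf1*, the gene of perforin, did not rise with day. Its WT mean was 159 CPM at Day 0 and 73.5 CPM at Day 5, and this fall was called, at -1.10 (SE 0.18). In KO the means of the days were 143 and 129 CPM, and that change, at -0.15 (SE 0.18), was not called. Between the genotypes at Day 5, *Prf1* was higher in KO, with 86.1 and 61 CPM in WT and 137 and 121 CPM in KO (0.81, SE 0.18, FDR 0.0489). That call was lost in 5 of the 8 fits without a library, with a highest FDR of 0.295, and also when the replicate number entered as a block (FDR 0.0506, edgeR, Benjamini-Hochberg). *Klf2*, a factor of resting T cells that the same list holds, fell from 43.7 to 9.93 CPM in WT and from 47.3 to 7.65 CPM in KO. *Il2*, the gene of interleukin 2, was the remaining call at Day 0, with 1 and 2 counts in WT and 68 and 50 counts in the libraries labelled KO, under 10 CPM in every library. That call was lost without replicate 1 of WT at Day 0 (FDR 0.0742, edgeR, Benjamini-Hochberg) and held in every other alternative run, where its highest FDR was 0.0292, without replicate 2 of WT at Day 0 (edgeR, Benjamini-Hochberg).

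Some calls of the wider set also depended on the processing. Correcting for GC content and exon length ended those of *Nrros* with day in KO (FDR 0.0969), *Smad5* at Day 0 (FDR 0.0537), and *Cdkn1a*, *Ifng* and *Prf1* at Day 5 (FDR 0.0632, 0.0762 and 0.109, edgeR, Benjamini-Hochberg). Scaling by library totals ended that of *Nrros* (FDR 0.0778), and fitting only the 4 libraries of a comparison ended those of *Smad5* (FDR 0.0526) and *Prf1* (FDR 0.0675, edgeR, Benjamini-Hochberg).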

How the data were processed

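RNA-seq count tables of 8 libraries were used. Per the labels, total RNA was prepared with Trizol, libraries were made with a NEBNext Ultra kit and read at 50 bases. The deposited values are raw counts per gene symbol, 1 table per library, and the submitters' processing notes name HISAT2 2.1.0, HTSeq 0.11.1 and mm10 (GRCm38). The annotation and the strand setting are not given in the sources used here. HTSeq summary lines were left out of the totals, and of all records, between 21.2% and 24.5% were in genes and between 31.8% and 37.4% were set aside as not uniquely aligned.

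Counts were fitted with edgeR 4.0.16 (R 4.3.3) by quasi-likelihood, with 1 mean per group over all 8 libraries, TMM factors (0.92 to 1.07) and a minimum count of 10 (12597 genes kept, with a common biological variation of 15%). Tests were two-sided, and Benjamini-Hochberg adjustment (FDR) ran over all genes tested, with calls at FDR under 0.05. DESeq2 1.42.0 was an alternative. Coordinates and exon lengths came from GENCODE M21 (GRCm38), promoters from RefSeq, and sequences were aligned with blastn 2.17.0. For lists, the named genes were the 3 called genes with the largest change per list and comparison, at 10 CPM or more in the higher group and without overlap of replicates; *Il2*, *Rplp0* and its copies were named after their values were seen. Correlations used log2 CPM with a prior count of 2. The script was tested on simulated counts with genes changed in KO at Day 5. It called 110 of 200 genes changed 2-fold and 143 of 200 changed 3-fold, so the absence of a call does not show the absence of a change. The members and lists were chosen with earlier results of these data known. Intervals of fold changes include the spread between libraries, and floors cover counting error only, as reads carried no molecular identifiers.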

Additional observations from a re-analysis of the deposited data

How the results depend on the processing

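Of 783 member results recomputed under an alternative, 742 kept their direction and side of the threshold, 3 lost and 5 gained a call and 33 changed sign, none of them in a called result. Without the filter on low counts, genes called numbered 434 at Day 0 and 418 at Day 5 between KO and WT and 154 in the interaction (main values 227, 205 and 20), members called 1 and 1, and pathway genes in the interaction 3. DESeq2 gave 335 genes at Day 5, 139 in the interaction and 2 pathway genes there. Correcting for GC content and exon length gave 117 genes and 2 pathway genes at Day 5 and 13 genes in the interaction, and equal depth gave 35 in the interaction.

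Leaving out 1 library at a time gave 38 to 276 genes at Day 0 (38 without replicate 1 and 49 without replicate 2 of WT at Day 0), 32 to 249 at Day 5 (119 to 121 without a WT library of Day 0, 84 without replicate 2 of WT at Day 5, 54 and 32 without replicates 1 and 2 of KO at Day 5) and 0 to 41 in the interaction (0 and 1 without a WT library of Day 0, 41 without replicate 1 of WT at Day 5, 3 and 4 without a KO library of Day 5). Pathway genes called were 0 to 5 at Day 0 and 0 to 5 at Day 5. The cause of these shifts was not tested.

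The replicate numbers were not taken as a pairing. Deviations from group means correlated at 0.118 in WT and 0.228 in KO between same-numbered libraries of the days, and at 0.00438 and -0.0165 between the genotypes. With the replicate block, 216, 215, 5999, 6291 and 29 genes were called, in the order Day 0, Day 5, day in WT, day in KO and interaction, with 7 and 7 members for day. A replicate block within genotype, added after the data were seen, gave 6064, 6385 and 55 genes for the last 3, and *Tgfbr3* with day in KO at -0.00.

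Sign changes, as log2 fold changes, were all in values not called. With the correction for GC content and exon length, *Tgfbr1* was at -0.02 at Day 0, 0.01 at Day 5 and 0.03 in the interaction, *Skil* at -0.01 at Day 0, and the interaction at 0.04 for *Smad2* and -0.05 for *Ski*. At equal depth *Smad2* was at 0.00 at Day 5 and 0.12 in the interaction, and *Tgfbr3* with day in KO at -0.01, where library totals gave -0.09. Leave-one-out values ran from -0.20 to 0.31 for *Tgfbr1* at Day 0, -0.36 to 0.18 at Day 5 and -0.44 to 0.09 in the interaction. Those of *Tgfbr3* ran from -1.95 to 0.76 at Day 0, -1.85 to 0.48 at Day 5, -1.52 to 1.66 with day in WT (0.39 without replicate 2 at Day 5), -0.95 to 0.87 with day in KO (-0.44 without replicate 1 at Day 0), and -1.56 to 1.66 in the interaction (-0.18, -0.27 and -0.68 without 3 other libraries). At Day 0 *Smad2* ran from -0.13 to 0.04 (0.03 without replicate 2 of KO), *Smad4* from -0.06 to 0.30 and *Smad7* from -1.29 to 0.14. At Day 5 *Smad3* ran from -0.30 to 0.04, and in the interaction *Smad4* ran from -0.09 to 0.26 and *Smad7* from -1.62 to 0.24. Low counts limit what can be read from *Tgfb1* (4 to 26 counts) and from *Smad7* at Day 5 (4 to 22 counts).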
